A study of Mus musculus with 8 samples.

Results

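Transcription of 5 genes that mark the formative and primed states of pluripotency was followed in mouse embryonic stem cells carrying a degron on the chromatin-loop anchor protein CTCF, with and without overexpressed CTCF. The genes were taken from a list of 8 (9 names, since Oct6 is an older name of Pou3f1) by their symbol in a table of 16940 genes. Foxd3, Zic2, Otx2, Sall2 and Grhl2 were found. Pou3f1, Fgf5 and Sox3 were not analysed here. All 5 analysed genes passed the filter on low values. The assay was TT-seq, in which a 15 min pulse of 400 µM 4-thiouridine marks newly made RNA before it is fragmented and captured. All cells were E14 embryonic stem cells of genotype CTCF AID, meaning that CTCF carries a degron through which the auxin IAA is meant to trigger its destruction. The level of CTCF protein was not measured in these data. Each line also overexpressed something: the control line (overexpressed control) contributed 2 libraries without the auxin and 2 taken 12 h after its addition, and the lines with overexpressed wild type CTCF and overexpressed mutated CTCF contributed 2 libraries each, all taken 12 h after IAA, which makes 4 groups of 2. The labels name neither the mutation nor the level of the overexpressed protein, and they do not say whether a line is 1 clone. An untreated sample of the lines with wild-type or mutated CTCF was not analysed here, so a difference between lines and a difference in CTCF cannot be told apart. In all groups the medium held leukemia inhibitory factor (1000 U/mL), the MEK inhibitor PD0325901 (1 µM) and the GSK3 inhibitor CHIR99021 (3 µM), a mixture that keeps cells in the naive state.

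Naive cells resemble the epiblast of the blastocyst before implantation. When the inhibitors are withdrawn, FGF signalling through ERK rises, naive factors such as KLF4, ESRRB and REX1 (the product of Zfp42) are shut down, and cells pass through a formative state resembling the early postimplantation epiblast before they become primed for germ-layer formation. The genes described here encode transcription factors that act in this change of state. OTX2 is a homeodomain protein that redirects the pluripotency factors to new enhancers, FOXD3 is a forkhead protein that works at enhancers, and ZIC2 and SALL2 are zinc-finger proteins. GRHL2 belongs to the grainyhead family and opens enhancers of epithelial genes in the epiblast. A cell leaving the naive state is therefore known for higher formative and lower naive transcripts.

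The libraries held 15671114 to 21561141 reads in listed genes. Libraries of 1 group correlated across genes at a Pearson's r of 0.993 to 0.995, and libraries of different groups at 0.982 to 0.988, and nothing in the labels says that the libraries of a group came from separate cultures, so the tests measure the spread between libraries only. The labelled cell type was checked against its markers, and all 7 of the pluripotent list were in the table. Nanog stood between 5172 and 6824 normalized reads, Esrrb between 13724 and 16985 and Pou5f1 between 1005 and 1532 over the 8 libraries. Utf1, a chromatin factor of pluripotent cells, was the low one, between 7.15 and 52.7. In the control line it fell from 47.9 normalized reads to 9.62 after IAA (by limma -2.24 on the log2 scale, SE 0.33, adjusted p = 6.1e-07), and the lines overexpressing wild-type (-1.61) or mutated CTCF (-1.59) also had less of it than untreated cells. Of the 7 markers, 1 was called higher and 3 lower with IAA, 5 higher and 1 lower in the wild-type CTCF line relative to untreated cells, and 4 higher and 2 lower in the mutated CTCF line. The shares of all tested genes, higher and lower, were 19.4% and 18.4%, 27.6% and 15.6%, and 24.0% and 13.7%. Of the markers of other cell types, 2 of 8 for neural ectoderm, 4 of 7 for mesoderm and primitive streak, 4 of 7 for endoderm, 3 of 6 for trophectoderm and 1 of 6 for totipotent-like cells were in the table. Their summed levels in the 4 groups, in the order control without IAA, control with IAA, wild-type CTCF and mutated CTCF, were 156.3 to 158.6, 221.1 to 222.7, 222.5 to 263.1 and 273.8 to 284.2 normalized reads for neural ectoderm, mostly from Nes. For mesoderm they were 178.0 to 182.8, 225.1 to 249.7, 294.6 to 300.6 and 174.0 to 179.7. For endoderm they were 194.8 to 227.6, 269.5 to 331.1, 233.4 to 262.1 and 256.0 to 259.1. For trophectoderm they were 60.2 to 74.1, 59.4 to 75.04, 100.5 to 110.2 and 52.2 to 69.2, and for the totipotent list at most 15.7. The trophectoderm sums came mostly from Eomes (means 55.3, 48.4, 81.4 and 46.5), which is also counted in the mesoderm sums. Krt7, also in the trophectoderm list, had means of 9.74, 14.9, 14.2 and 14.2 in the same order. Singly, Pdgfra (1.78 on the log2 scale), Gsc (0.90), Gata4 (0.64), Kdr (0.51) and Nes (0.48) rose with IAA in the control line and Gata6 (-0.59) fell. Eomes, Dab2 and Krt7 did not pass. Among the markers too low to test, T did not exceed 10.7 normalized reads in any library and Gata3 was listed at 0 in some. Their part in the results on the 5 genes was not tested. In bulk RNA, fewer cells making a transcript and less transcript per cell cannot be told apart.

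The first question is what the treatment meant to remove CTCF does to the 5 genes, addressed by comparing the control line with and without the auxin. Foxd3 fell 2.35-fold, Otx2 and Sall2 also fell, and Grhl2 rose, while Zic2 did not pass the test. In counts, 3 of 5 genes were lower and 1 was higher at an adjusted p under 0.05 (limma on log2(value + 1), Benjamini-Hochberg adjustment over 15818 genes). Of all tested genes 18.4% were called lower and 19.4% higher, 37.7% in either direction. With libraries rescaled to the same total, the 5 genes gave 4 lower and 1 higher, and 25.9% and 16.2% of all genes were lower and higher. All 5 genes had libraries that did not overlap between the groups, against 68.2% of all tested genes. The median log2 difference (the log2 fold change fitted on the log2(value + 1) scale) of the 5 was -0.48, beside -0.0017 over all genes. Leaving out any 1 of the 4 libraries gave 1 or 2 calls among the 5, while 4284 to 4773 of all genes were called.

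Foxd3 (ENSMUSG00000067261.4, chromosome 4, 99656299 to 99658622, plus strand, GRCm38, a gene with all of its 2324 bases exonic) had 87.8 and 91.4 normalized reads without IAA and 44.1 and 31.9 with IAA. Both treated libraries lay far below both untreated ones. The mean went from 89.6 ± 2.6 (SD, n = 2) to 37.98 ± 8.6, and the log2 difference was -1.23 (SE 0.19, adjusted p = 1.5e-06). The adjusted p stayed between 2.6e-09 and 0.0058 over the 13 alternatives.

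Sall2 (ENSMUSG00000049532.11, chromosome 14, 52311172 to 52328762, minus strand) was the weakest of the 5 in normalized reads, with 30.9 and 31.9 without IAA and 16.7 and 18.7 with IAA, which rest on 37 and 37 reads against 14 and 17. The groups did not overlap. Its log2 difference was -0.80 (SE 0.30, adjusted p = 0.035). The call was lost when any of the 4 libraries was left out and without the mean-variance trend, with adjusted p between 0.019 and 0.15 over 12 alternatives.

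Otx2 (ENSMUSG00000021848.16, chromosome 14, 48657677 to 48673819, minus strand) had 79.4 and 65.5 normalized reads without IAA and 54.8 and 48.4 with IAA. The untreated libraries lay further apart than the treated ones, but the groups did not overlap. The log2 difference was -0.48 (SE 0.19, adjusted p = 0.047). This call too was lost when any of the 4 libraries was left out, with adjusted p between 0.024 and 0.32 over 13 alternatives. Otx2 shares 5112 bases with the long noncoding RNA gene Otx2os1 on the opposite strand (chromosome 14, 48668708 to 48870683), and how reads were assigned to strands is not given in the sources used here, so the Otx2 values are uncertain to that extent. A further gene annotated on the strand of Otx2 and a microRNA gene within Foxd3 were not analysed here. Otx2os1 itself fell from 106.7 ± 14 to 57.5 ± 9.7 normalized reads (log2 difference -0.89, SE 0.19, adjusted p = 0.00019). By limma it was also lower with mutated CTCF than in the untreated control (-0.56, adjusted p = 0.016). With wild-type CTCF it was higher than in the control with IAA (0.57, adjusted p = 0.017). Mutated CTCF against the control with IAA (0.33) and wild-type CTCF against the untreated control (-0.32) did not pass for Otx2os1.

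Zic2 (ENSMUSG00000061524.8, chromosome 14, 122475435 to 122479852, plus strand) had 382.0 and 363.8 normalized reads without IAA and 334.7 and 332.2 with IAA. The groups did not overlap, yet the difference was small, with a log2 difference of -0.16 (SE 0.085, 95% interval -0.33 to 0.01, adjusted p = 0.14). It passed with libraries rescaled to the same total (log2 difference -0.21, adjusted p = 0.031), the only 1 of 13 alternatives in which it did (adjusted p 0.031 to 0.42).

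Grhl2 (ENSMUSG00000022286.16, chromosome 15, 37233036 to 37363569, plus strand) went the other way, with 153.0 and 188.8 normalized reads without IAA and 226.3 and 254.1 with IAA. Both treated libraries were above both untreated ones. The log2 difference was 0.49 (SE 0.12, adjusted p = 0.00072). Without the first untreated library it was 0.34 (adjusted p = 0.07, the highest of 13 alternatives, the lowest being 2.1e-05). Grhl2 spans 130534 bases, of which 8613 are exonic, and 3 annotated genes on the opposite strand lie over parts of it. Those 3 were not analysed here.

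**Figure D1:**
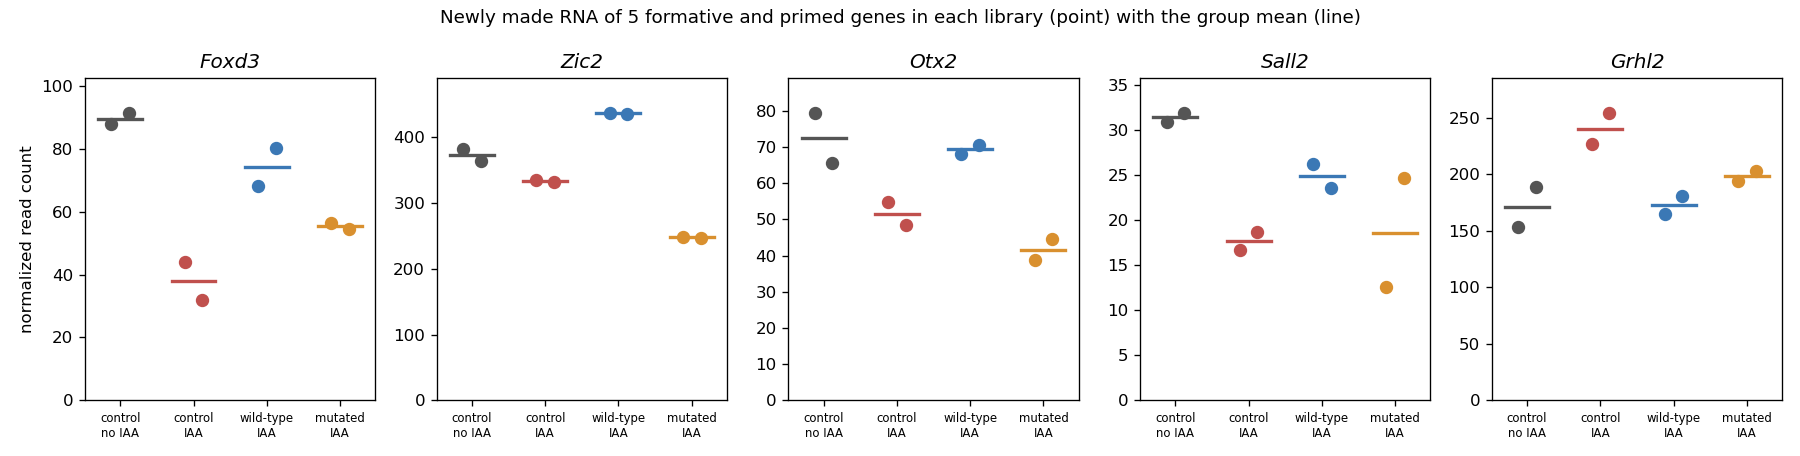
Normalized read counts (vertical axis, from 0, with its own scale for each gene) of Foxd3, Zic2, Otx2, Sall2 and Grhl2 in each of the 8 libraries (points) with the mean of each group of 2 (lines). Foxd3 is lowest in the control line with IAA (31.9 and 44.1), Zic2 is lowest with mutated CTCF (247.1 and 248.7), and Grhl2 is highest in the control line with IAA (226.3 and 254.1).

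Start regions of the genes that fell with IAA are printed to show the letters near an annotated start of each, which need not be the start in use. RefSeq (GRCm38.p6) gave 7 start windows, each of 300 bases, for 3 of the 5 genes, Foxd3, Otx2 and Sall2, each reaching from 250 bases before the start to 50 after it. The set of windows used here held none for Zic2 or Grhl2. The windows were searched on both strands for AGGNGGC, a short form of the core of the CTCF motif, for TAATCC, the core bound by OTX proteins, and for the GC box GGGCGG. The window with the most CpG dinucleotides of each gene is given 5′ to 3′ on the gene's strand in lower case, with matches to AGGNGGC and TAATCC (or their reverse complements) in capitals.
Foxd3, chr4:99656049-99656348, plus strand: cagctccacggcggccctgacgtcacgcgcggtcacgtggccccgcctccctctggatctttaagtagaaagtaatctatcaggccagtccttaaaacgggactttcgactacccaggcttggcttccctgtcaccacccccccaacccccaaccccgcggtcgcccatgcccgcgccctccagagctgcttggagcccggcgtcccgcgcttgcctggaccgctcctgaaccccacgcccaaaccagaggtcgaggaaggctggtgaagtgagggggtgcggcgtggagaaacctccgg
Otx2, chr14:48665060-48665359, minus strand: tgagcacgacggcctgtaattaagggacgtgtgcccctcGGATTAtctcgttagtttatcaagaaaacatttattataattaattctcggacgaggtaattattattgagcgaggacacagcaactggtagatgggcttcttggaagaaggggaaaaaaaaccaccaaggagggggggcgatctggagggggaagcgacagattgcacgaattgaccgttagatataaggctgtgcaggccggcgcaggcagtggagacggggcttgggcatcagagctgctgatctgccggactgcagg
Sall2, chr14:52316274-52316573, minus strand: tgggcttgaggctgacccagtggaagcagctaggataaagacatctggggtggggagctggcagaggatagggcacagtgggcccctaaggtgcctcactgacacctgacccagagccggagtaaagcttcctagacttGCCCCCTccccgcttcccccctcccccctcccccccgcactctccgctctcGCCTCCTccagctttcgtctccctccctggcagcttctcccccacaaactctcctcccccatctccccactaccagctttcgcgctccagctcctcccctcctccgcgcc
The Foxd3 window held 25 CpG dinucleotides, the Otx2 window 16 and the Sall2 window 10, which the choice of windows favours. The windows not printed held 6, 8 and 11 for Otx2 and 1 for Sall2, and the median over 32817 unselected windows was 7. None of the 7 windows held GGGCGG, which 35.6% of all windows held. The Sall2 window held 2 matches to AGGNGGC, present in 29.3% of windows, and the Otx2 window held 1 match to TAATCC, present in 7.1%. The Foxd3 start coincides with the gene start of the GENCODE annotation. The Otx2 and Sall2 starts printed here lie 8710 and 12439 bases inside the annotated gene, and the deposited values do not say which start was used. A match is a description of letters, and a window without one says nothing about binding.

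The next question is how a line given wild-type CTCF differs from the control line when both are treated with IAA. Foxd3 and Zic2 were higher with wild-type CTCF and Grhl2 was lower, so 2 of 5 genes were called higher and 1 lower. Of all tested genes 21.5% were called higher and 10% lower, 31.6% in either direction. After median-of-ratios rescaling the 5 genes kept the counts of 2 and 1, while 16.1% of all genes were higher and 15.9% lower. The median log2 difference was 0.42 for the 5 genes and 0.057 for all genes. All 5 genes had libraries that did not overlap, beside 64.4% of all genes. This comparison and the first share the libraries of the control line with IAA.

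Foxd3 had 68.2 and 80.2 normalized reads with wild-type CTCF, both above the 44.1 and 31.9 of the control, and its log2 difference was 0.96 (SE 0.19, adjusted p = 0.00015). Zic2 had 437.1 and 435.4, above the 334.7 and 332.2 of the control by a log2 difference of 0.39 (SE 0.085, adjusted p = 0.00049). The Zic2 values of each group lay within a few normalized reads of each other. Grhl2 had 164.4 and 180.8 normalized reads, below the 226.3 and 254.1 of the control, with a log2 difference of -0.47 (SE 0.12, adjusted p = 0.0017). Without the mean-variance trend the Grhl2 call was lost (adjusted p = 0.054, the highest of 13 alternatives, the lowest being 0.00027). Otx2 had 68.2 and 70.6 normalized reads, with no overlap with the control but a log2 difference of 0.42 that did not pass (SE 0.19, adjusted p = 0.09). Sall2 had 26.2 and 23.5, a log2 difference of 0.47 that did not pass either (SE 0.30, adjusted p = 0.25).

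For mutated CTCF the same question was put. Foxd3 was higher and Zic2 was lower than in the control line with IAA, so 1 of 5 genes was called in each direction. Of all tested genes 22.0% were called higher and 12.4% lower, 34.3% in either direction. After median-of-ratios rescaling Grhl2 was also called lower, giving 1 higher and 2 lower of the 5, and 17.1% and 17.0% of all genes. The median log2 difference was -0.27 for the 5 genes and 0.055 for all genes, and 4 of the 5 did not overlap between groups, beside 65.1% of all genes.

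Zic2 stood at 248.7 and 247.1 normalized reads with mutated CTCF, below all other libraries of the series. Its log2 difference from the control with IAA was -0.43 (SE 0.085, adjusted p = 0.00011). Foxd3 had 56.4 and 54.4 normalized reads, above the 44.1 and 31.9 of the control, with a log2 difference of 0.55 (SE 0.19, adjusted p = 0.023). The Foxd3 call was lost without the second control library with IAA (log2 difference 0.32, adjusted p = 0.28), without either mutated CTCF library (adjusted p = 0.09 and adjusted p = 0.062), with only the 2 groups in the fit (adjusted p = 0.052) and without the trend (adjusted p = 0.064), over a range of 0.0079 to 0.28. Grhl2 had 194.3 and 202.7 normalized reads, under both control libraries, with a log2 difference of -0.27 that did not pass on the authors' scale (SE 0.12, adjusted p = 0.066). Otx2 had 38.7 and 44.5 normalized reads (log2 difference -0.31, SE 0.19, 95% interval -0.70 to 0.08, adjusted p = 0.23). The libraries of Sall2 stood apart, at 12.5 and 24.7 normalized reads, or about 12 and 25 reads by the steps of the values, on either side of the control, and the fitted difference was 0.00 with a 95% interval of -0.61 to 0.61.

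Mutated and wild-type CTCF were then set against each other, both with IAA, a comparison whose means use neither set of control libraries, although its spread was estimated over all 8 libraries. Zic2 and Otx2 were lower with mutated CTCF, and no gene of the 5 passed in the other direction (limma, 2 lower and 0 higher; 3 lower and 0 higher at an unadjusted p under 0.05). Of all tested genes 18.4% were called lower and 16.3% higher, 34.7% in either direction, and the median log2 difference was -0.47 for the 5 genes beside -0.0087 for all. Libraries did not overlap for 4 of the 5, beside 65.5% of all genes. Zic2 went from 437.1 and 435.4 normalized reads with wild-type CTCF to 248.7 and 247.1 with mutated CTCF. This gap, a log2 difference of -0.81 (SE 0.085, adjusted p = 4.3e-10), is far larger than the SD of either pair. Otx2 went from 68.2 and 70.6 to 38.7 and 44.5, a log2 difference of -0.73 (SE 0.19, adjusted p = 0.0028). Otx2os1, on its opposite strand, had overlapping groups here, 86.95 ± 25 with wild-type and 72.35 ± 11 with mutated CTCF, and did not pass (log2 difference -0.24, SE 0.19, adjusted p = 0.34). Both calls held in all 13 alternatives, with adjusted p up to 0.0013 for Zic2 and 0.039 for Otx2. Markers of other lineages were also called between these lines, Kdr (-0.98, adjusted p = 1.1e-06) and Eomes (-0.81, adjusted p = 0.0027) lower and Nes (0.27, adjusted p = 0.043) higher with mutated CTCF. Of the 7 pluripotent markers 4 were called lower, Sall4 (-0.27), Pou5f1 (-0.19), Zfp42 (-0.19) and Nanog (-0.18), and 1 higher, Esrrb (0.08). The part of all these markers in the Otx2 and Zic2 values was not tested. Foxd3 did not pass (log2 difference -0.41, SE 0.19, 95% interval -0.80 to -0.02, adjusted p = 0.093). Sall2 (-0.47, SE 0.30, adjusted p = 0.24), which ranged from -0.93 (adjusted p = 0.042) without the second mutated library to -0.01 (adjusted p = 0.99) without the first, and Grhl2 (0.20, SE 0.12, adjusted p = 0.18) did not pass either.

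**Figure D2:**
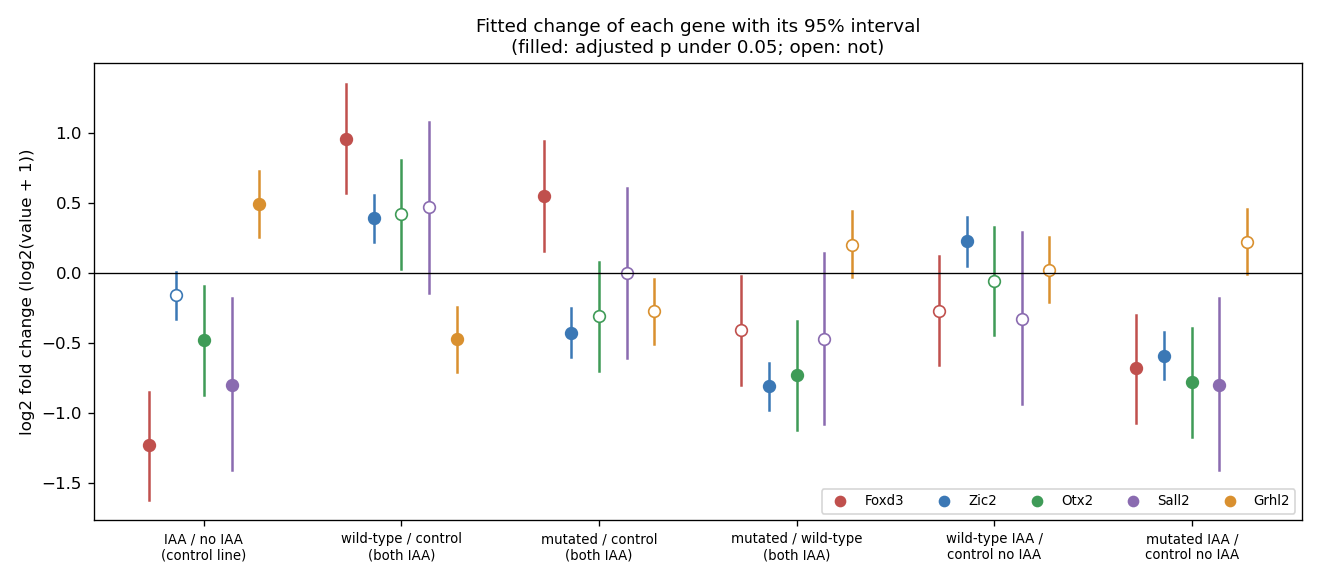
Log2 differences on the log2(value + 1) scale (points) with 95% intervals (lines) for the 5 genes in the 6 comparisons of groups of 2 libraries, with filled points for an adjusted p under 0.05. With IAA, Foxd3 (-1.23), Sall2 (-0.80) and Otx2 (-0.48) lie below 0 and Grhl2 (0.49) above it, and Zic2 is below 0 in each comparison that has mutated CTCF as its first group.

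Each line with overexpressed CTCF was also compared with the untreated control, which asks how far its transcription lay from that of cells without the treatment. With wild-type CTCF, Zic2 was the 1 gene of 5 called, and it was higher (limma, 1 higher and 0 lower, and the same at an unadjusted p under 0.05), beside 27.6% of all genes called higher and 15.6% lower (43.2% in either direction). The split of all genes was 23.1% higher and 21.5% lower after median-of-ratios rescaling and 20.4% and 24.4% with equal totals. Libraries of 3 of the 5 did not overlap, beside 71.5% of all genes. For Zic2 the log2 difference was 0.23 (SE 0.085, adjusted p = 0.028). The call was lost after median-of-ratios rescaling (0.17, adjusted p = 0.073), with equal totals (0.14, adjusted p = 0.14) and without any 1 of the 4 libraries (adjusted p from 0.018 to 0.18 over the alternatives). The other 4 genes had 95% intervals that included 0: -0.44 to 0.33 for Otx2, -0.66 to 0.12 for Foxd3, -0.94 to 0.29 for Sall2 and -0.21 to 0.26 for Grhl2. Among markers of other lineages, Pdgfra (1.67), Kdr (0.81), Gsc (0.62), Nes (0.59) and Eomes (0.57) were called higher in this comparison. Gata6 (-0.54) was called lower, and Gata4, Dab2 and Krt7 did not pass. The part of these markers in the values of the 5 genes was not tested.

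With mutated CTCF, 4 of 5 genes were called lower than in the untreated control and 0 higher (limma, with 4 lower and 0 higher at an unadjusted p under 0.05), beside 13.7% of all genes called lower and 24.0% higher (37.8% in either direction). All 5 had libraries that did not overlap, beside 67.9% of all genes. Of the other-lineage markers, Pdgfra (1.66), Nes (0.87), Gsc (0.66) and Gata4 (0.39) were called higher in this comparison and Gata6 (-0.80) lower. Eomes, Kdr, Dab2 and Krt7 did not pass, and the part of these markers in the values of the 5 genes was not tested. After rescaling the 5 genes gave 4 lower and 0 higher both ways, while all genes gave 18.3% lower and 19.9% higher by median-of-ratios and 21.6% and 16.4% with equal totals. Sall2 had a log2 difference of -0.80 (SE 0.30, adjusted p = 0.035), Otx2 of -0.78 (SE 0.19, adjusted p = 0.0011), Foxd3 of -0.68 (SE 0.19, adjusted p = 0.0041) and Zic2 of -0.59 (SE 0.085, adjusted p = 4.2e-07). Grhl2 did not pass (0.22, SE 0.12, adjusted p = 0.13), though without the second untreated library it was 0.37 and passed (adjusted p = 0.0497). The Sall2 value rests on the first mutated library, without which it was -0.33 (adjusted p = 0.50, over a range of 0.0047 to 0.50), and the Sall2 call was also lost without either untreated library and without the trend. The Foxd3 call was lost without the second untreated library (adjusted p = 0.0503, the highest of a range that began at 0.00039).

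The order of levels over the groups differed between the genes. For Foxd3 the means were 89.6, 74.2, 55.4 and 37.98 normalized reads in the untreated control, wild-type CTCF, mutated CTCF and the control with IAA. In this order the untreated control and wild-type CTCF, and wild-type and mutated CTCF, did not differ past the threshold. For Zic2 the order was wild-type CTCF (436.3 ± 1.2), untreated control (372.9 ± 13), control with IAA (333.4 ± 1.8) and mutated CTCF (247.9 ± 1.1), and only the untreated control and the control with IAA were neighbours that did not differ. For Otx2 it was untreated control (72.5 ± 9.8), wild-type CTCF (69.4 ± 1.7), control with IAA (51.6 ± 4.5) and mutated CTCF (41.6 ± 4.1), with no neighbours past the threshold. For Sall2 it was untreated control (31.4 ± 0.69), wild-type CTCF (24.9 ± 1.9), mutated CTCF (18.6 ± 8.6) and control with IAA (17.7 ± 1.4), again with no neighbours past it. For Grhl2 it was control with IAA (240.2 ± 20), mutated CTCF (198.5 ± 5.9), wild-type CTCF (172.6 ± 12) and untreated control (170.9 ± 25), with no neighbours past it either. Over the 8 libraries Pearson's r of log2 values was 0.90 between Otx2 and Zic2, 0.67 between Otx2 and Foxd3 and 0.44 between Zic2 and Foxd3, and Grhl2 had r of -0.44 to -0.87 with the other genes. These values are descriptions over 8 libraries in 4 groups.

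The other genes of the formative and primed programme were taken from a list of 20, of which 18 were tested. With IAA in the control line 9 were lower and 2 higher, with a median log2 difference of -0.24. Over all tested genes 18.4% were lower and 19.4% higher. With libraries rescaled to the same total, 11 of the 18 were lower and 1 higher, beside 25.9% and 16.2% of all genes. Dusp6, a phosphatase that inactivates ERK, went from 130.4 ± 8.2 to 60.03 ± 0.66 normalized reads (log2 difference -1.10, SE 0.17, adjusted p = 1.9e-06), and the feedback inhibitor Spry4 and the ETS factor Etv4 had log2 differences of -0.87 (adjusted p = 0.0015) and -0.30 (adjusted p = 0.0061). Etv5, the relative of Etv4, did not pass (-0.07, adjusted p = 0.08). Zic5, a zinc-finger gene related to Zic2, fell by 0.19 on the log2 scale (adjusted p = 0.042). Lin28b, an RNA-binding protein of the let-7 pathway, fell by 0.64, Tcf15 by 0.63, the DNA methyltransferase gene Dnmt3a by 0.36 and Sall1 by 0.33. The 2 that rose were Dnmt3b, the other de novo methyltransferase (477.6 ± 21 to 626.5 ± 10, log2 difference 0.39, adjusted p = 2.4e-05), and Lef1, a transcription factor of the Wnt pathway (0.25, adjusted p = 0.046). Without the second untreated library 7 genes of the list were called.

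With wild-type CTCF against the control, both with IAA, 9 of the 18 were higher and 1 lower (median 0.24), beside 21.5% and 10% of all genes, with Spry4 (0.74) and Etv4 (0.52) among the higher ones and Rbpj, the Notch effector, lower (-0.14). Median-of-ratios rescaling gave 7 and 1. With mutated CTCF 4 were higher and 1 lower (median 0.03), beside 22.0% and 12.4% of all genes, and 3 and 3 after that rescaling or with equal totals. The lower one was Lef1, which went from 309.6 ± 27 to 145.1 ± 10 normalized reads (log2 difference -1.09, SE 0.10, adjusted p = 1.9e-11). Mutated set against wild-type CTCF, 6 were lower and 1 higher (median -0.24), beside 18.4% and 16.3% of all genes. Lef1 (-1.28, adjusted p = 2.1e-13), Lin28b (-0.52, adjusted p = 3.4e-05), Etv4 (-0.47, adjusted p = 4.5e-05), Nodal, a TGF-beta family ligand (-0.36, adjusted p = 3.3e-05), Zic5 (-0.25, adjusted p = 0.0077) and Dnmt3b (-0.25, adjusted p = 0.0051) were lower, and Rbpj (0.22, adjusted p = 1.8e-07) was higher.

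Against the untreated control, 6 of the 18 were higher and 5 lower with wild-type CTCF (4 and 6 after median-of-ratios rescaling), and 2 were higher and 8 lower with mutated CTCF (1 and 11 with equal totals). Of all genes 27.6% were higher and 15.6% lower in the former comparison and 24.0% and 13.7% in the latter. Dusp6 was lower in both lines, at 59.7 ± 5.8 and 51.8 ± 0.59 normalized reads, log2 differences of -1.12 (adjusted p = 1.5e-06) and -1.31 (adjusted p = 6.9e-08). Without the second untreated library 7 genes of the list were called with wild-type CTCF.

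On the naive side, each of the 15 listed genes were tested, and with IAA 7 were lower and 4 higher, with a median log2 difference of -0.01, beside the 18.4% and 19.4% of all genes. The 3 largest changes were those of Dppa3, Fgf4 and Nr0b1. Dppa3, a factor of naive and germ cells, rose from 27.7 ± 11 to 107.2 ± 10 normalized reads (log2 difference 1.96, SE 0.22, adjusted p = 1.9e-09). Fgf4, a ligand of the FGF pathway, fell (-0.54, adjusted p = 2.3e-10), as did the nuclear receptor gene Nr0b1 (-0.49, adjusted p = 3.5e-06). Against the untreated control 8 were higher and 3 lower with wild-type CTCF (6 and 4 with equal totals), and 7 were higher and 4 lower with mutated CTCF (5 and 6 with equal totals), with medians of 0.11 in both. Between mutated and wild-type CTCF 5 were higher and 7 lower (median 0.02). The shares of all genes, higher and lower, were 27.6% and 15.6%, 24.0% and 13.7%, and 16.3% and 18.4% in these 3 comparisons. Relative to the IAA-treated control line, wild-type CTCF had 10 of the 15 higher and 1 lower, and mutated CTCF likewise 10 higher and 1 lower. All genes also leaned higher here, at 21.5% against 10% and at 22.0% against 12.4%. Median-of-ratios rescaling made these 9 and 1, and 9 and 2. Of the 9 tested genes of the FGF pathway list, Fgf4, Dusp6, Spry4 and Etv4 fell with IAA, and the receptor genes Fgfr1 (0.24, adjusted p = 0.00011) and Fgfr2 (0.21, adjusted p = 7e-05) rose. Etv5 and the feedback inhibitor gene Spry2 (0.09, adjusted p = 0.50) were among the 3 that did not pass, and the median of the 9 was -0.07. The lists share genes: Fgf4 is also counted in the naive list, and Dusp6, Spry4, Etv4 and Etv5 in the other formative list. Nanog, Esrrb, Zfp42 and Tdgf1 are counted both in the naive list and among the pluripotent markers, so those counts are not separate.

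**Figure D3:**
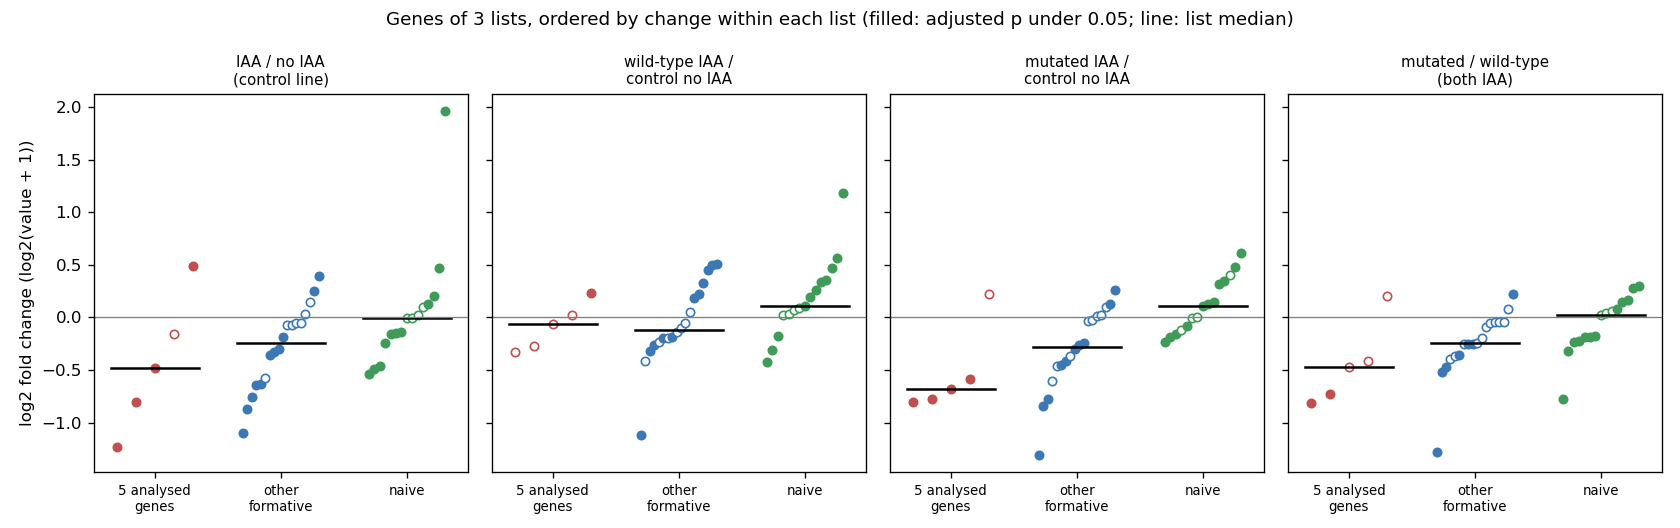
Log2 differences on the log2(value + 1) scale of the 5 analysed genes, 18 other formative and primed genes and 15 naive genes in 4 comparisons, ordered within each list, with filled points for an adjusted p under 0.05 and a line at the list's median. The medians of the formative lists lie below 0 with IAA (-0.48 and -0.24), and that of the naive list is -0.01.

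Since CTCF bounds the reach of enhancers, the nearest tested gene on each side of the 5 genes was read beside them, leaving out genes that overlap them, such as Otx2os1. At Foxd3, the long noncoding RNA gene Gm12688, 1.3 kb upstream, went from 18.3 to 9.67 normalized reads with IAA (log2 difference -0.86, SE 0.36, adjusted p = 0.053), which did not pass, and Gm12682, 3.9 kb downstream, had a log2 difference of 0.20 (SE 0.22, adjusted p = 0.50). Gm12682 was, however, lower with mutated than with wild-type CTCF, at 30.5 against 74.1 normalized reads (log2 difference -1.24, SE 0.22, adjusted p = 2.3e-05), and wild-type CTCF had it higher than the IAA-treated control (0.76, adjusted p = 0.0073). At Zic2, the downstream neighbour Pcca, a mitochondrial carboxylase gene 54.5 kb away, was higher with mutated than with wild-type CTCF (log2 difference 0.24, SE 0.035, adjusted p = 7.1e-07), the direction opposite to that of Zic2, and lower in the control line with IAA than without (-0.24, adjusted p = 3.2e-07). The transcript 2610035F20Rik, 0.2 kb upstream on the other strand, stood at 17.3 and 16.4 normalized reads (log2 difference 0.07, SE 0.32, adjusted p = 0.89).

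At Otx2, the downstream neighbour Tmem260, 133.4 kb away, fell with IAA from 444.7 to 245.3 normalized reads (log2 difference -0.86, SE 0.087, adjusted p = 9.8e-11) but the CTCF forms did not differ past the threshold (0.11, adjusted p = 0.33). By limma Tmem260 was higher than in the IAA-treated control with wild-type (0.51, adjusted p = 1.3e-05) and with mutated CTCF (0.62, adjusted p = 2.9e-07). Otx2 passed in neither of these comparisons (0.42 and -0.31). The upstream neighbour Exoc5, 330.3 kb away, rose with IAA by a log2 difference of 0.11 (adjusted p = 0.021). At Sall2, the RNA methyltransferase gene Mettl3, 6.0 kb downstream, did not pass with IAA (-0.05, SE 0.075, adjusted p = 0.64), and Gm30214, 703.7 kb upstream, rose (0.48, SE 0.13, adjusted p = 0.0024). At Grhl2, Ncald, 2.6 kb downstream on the other strand, went from 69.04 to 41.9 normalized reads with IAA (-0.70, SE 0.23, adjusted p = 0.013), where Grhl2 rose. Wild-type CTCF had both lower than the IAA-treated control (Ncald -0.61, adjusted p = 0.037), and Ncald was higher with mutated than with wild-type CTCF (0.81, adjusted p = 0.0049), where Grhl2 did not pass. At the other end, Gm26766, 188.9 kb upstream, did not pass with IAA (0.25, SE 0.14, adjusted p = 0.14).

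**Figure D4:**
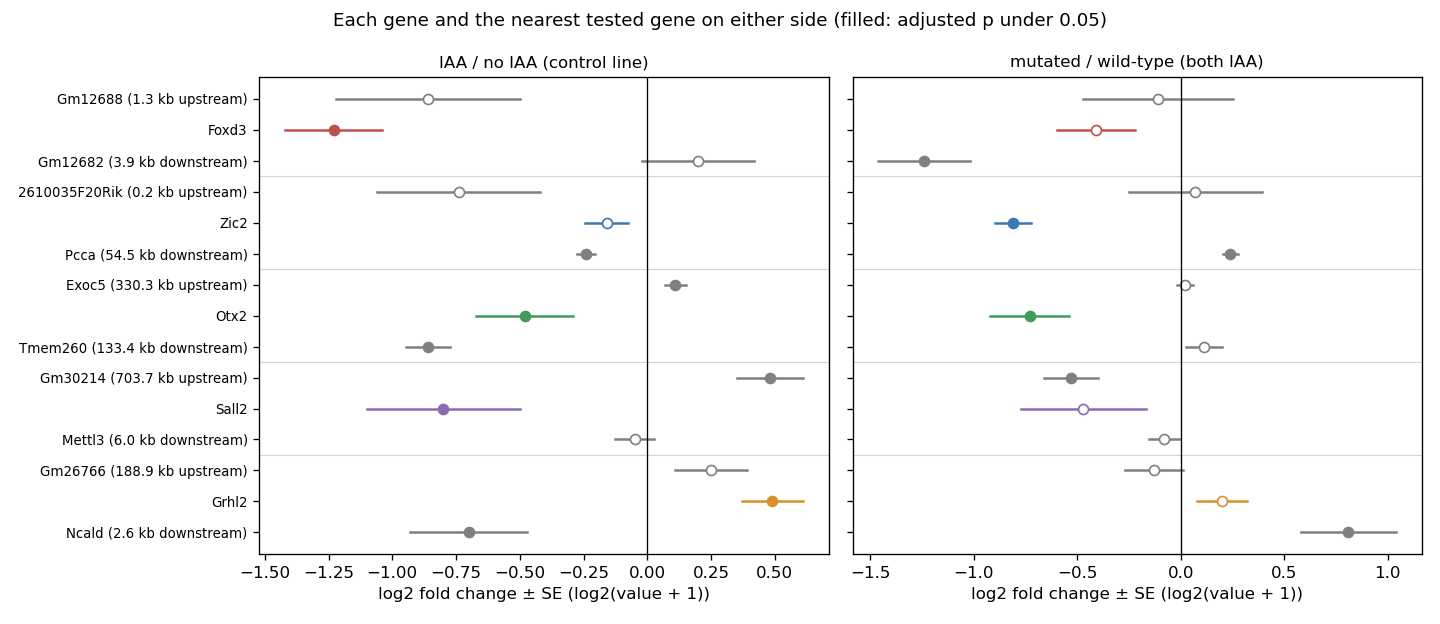
Log2 differences with SE on the log2(value + 1) scale of each of the 5 genes (colours) and of the nearest tested gene on either side that does not overlap it (grey, with its distance), for IAA against no IAA and for mutated against wild-type CTCF, with filled points for an adjusted p under 0.05. Tmem260 (-0.86) lies on the same side of 0 as Otx2 (-0.48) with IAA, and Pcca (0.24) lies opposite to Zic2 (-0.81) between the CTCF forms.

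Among 11856 other genes with a mean of at least 50, those whose log2 values over the 8 libraries ran most like each gene were found by Pearson's r, which the choice of the best of so many makes high. For Zic2 they were Stox2 (r = 0.992) and Kalrn (0.988), with Stox2 at 749.2, 626.1, 866.9 and 423 normalized reads in the untreated control, control with IAA, wild-type CTCF and mutated CTCF. For Otx2 they were Kcnh1 (0.981) and Rbm38 (0.974), for Foxd3 Oma1 (0.988) and Ankrd6 (0.985), for Sall2 Npepl1 (0.969) and Ripor1 (0.949) and for Grhl2 Pth2r (0.990) and Cpeb1 (0.973).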

How the data were processed

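TT-seq was measured in 8 libraries in 4 groups of 2. The authors deposited 1 table of normalized read counts, a signal made, per the values, by dividing whole reads by 1 factor per library (100% of values were whole multiples of a step of 0.836 to 1.19, within 0.05 of a step). Per the submitters' processing notes Trim Galore, STAR, featureCounts and DESeq2 were used on mm10. Their roles, and the annotation, strand setting and filter, are not given in the sources used here. No other per-sample column was present (0 columns). Positions are from GENCODE M21 on GRCm38, where 16917 of 16940 gene IDs were found.

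Values were tested as log2(value + 1) with limma 3.58.1 in R 4.3.3, with 1 coefficient per group over all 8 libraries (4 residual degrees of freedom), moderated variances and a trend of variance on mean, for 15818 genes with a mean of at least 10. Benjamini-Hochberg adjustment ran over all of them in each of 6 comparisons, with a threshold of 0.05. This scale understates changes of low genes. The script was tested on simulated data. The genes named are the 5 members, listed genes past the threshold, nearest tested neighbours and the 2 most similar genes. Members and lists were chosen with earlier results of these data known. Otx2os1 was added because it overlaps Otx2. Intervals cover the spread between libraries. The alternatives tried were other pseudocounts (0.5, 10), filters (none, or a mean of at least 50), 2 rescalings, a fit of only the groups compared, a fit without the trend, a replicate block, and each library left out. The Ctcf transcript was not analysed here.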

Additional observations from a re-analysis of the deposited data

Results flagged for a closer look

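Otx2 and Zic2 were picked out because the line with wild-type CTCF and the line with mutated CTCF, each also compared with the control line with IAA, differed by the direct test between them (limma). Whether the CTCF form or another difference between the lines goes with this cannot be told apart. The difference, mutated minus wild type, was -0.73 on the log2 scale for Otx2 (SE 0.19, adjusted p = 0.0028) and -0.81 for Zic2 (SE 0.085, adjusted p = 4.3e-10). In both genes each of the 2 mutated CTCF libraries lay below each of the 2 wild-type ones, as the choice of these genes by this test favours. Of all tested genes 65.5% had groups that did not overlap and 34.7% were called.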

How the results depend on the processing

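With 2 libraries a group, leaving 1 out assumes that the lone library varies like the other groups. Of 384 alternative values of the 5 genes, 343 kept direction and side of the threshold, 27 lost the call, 6 gained it and 8 changed sign. Those 8 were values near 0: Sall2 between mutated CTCF and control with IAA (0.00) became 0.02 with a pseudocount of 10, 0.08 without the second control library with IAA and 0.46 without the first mutated library (leave-one-out range -0.46 to 0.46), Otx2 between wild-type CTCF and the untreated control (-0.06) became 0.08 without the first untreated library (range -0.19 to 0.08), and Grhl2 in that comparison (0.02) became -0.03 after median-of-ratios rescaling, -0.06 with equal totals, -0.13 without the first untreated library and -0.05 without the second wild-type library (range -0.13 to 0.17). Without the mean-variance trend the genes called of all tested fell to 3946 for IAA, 2379 for wild-type and 3228 for mutated CTCF against the control, 3263 between the CTCF forms and 3869 for mutated CTCF against the untreated control. The naive list then gave 7, 4, 7, 4 and 5 calls in the same order, the other formative list 6 for wild-type CTCF against the control, and the 5 genes 1 for mutated CTCF against the control, as also with only the 2 groups in the fit. Against the untreated control, wild-type CTCF gave 0 of the 5 genes after median-of-ratios rescaling and 0 with equal totals (limma; 1 and 0 at an unadjusted p under 0.05). Leaving out each library gave 1 to 2 of the 5 genes for IAA, 1 to 2 for mutated CTCF against the control, and 0 to 0 for wild-type CTCF against the untreated control. It gave 7 to 10 of the other formative list for IAA and 7 to 10 for wild-type CTCF against the untreated control, and 3274 to 4622 of all genes for wild-type CTCF against the control, lowest without the second wild-type library. The cause was not tested. The replicate numbers come from the titles and share only a number: over 6 pairs of groups, deviations from the group means correlated at 0.0037 on average between equal numbers (-0.022 to 0.028). With the number as a replicate block the 5 genes gave 4, 3, 3, 2, 1 and 4 calls in the 6 comparisons in the order of the report, Grhl2 (-0.27, adjusted p = 0.042) being added for mutated CTCF against the control, and all genes gave 6423, 5532, 5920, 5981, 7237 and 6397. The 2 planned count-model alternatives were not run, since the step of the second mutated library (0.989) lies so near 1 that its values were not accepted as recovered reads, and read numbers given for it carry that doubt. Sall2 has no value with a minimum mean of 50. Depth limits Sall2 most, at 12 to 37 reads a library.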
